A study of Mus musculus with 20 samples.

Results

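The squamous cornified envelope genes considered here were Sprr1a, Sprr1b, Sprr2a, Sprr3, Ivl, Tgm1, Tgm2 and Cnfn. Every non-control probe whose gene name on the array equalled 1 of these 8 symbols was taken, which gave 11 of 41174 probes. They were followed in 20 whole tracheas from mice labelled as 4 months old, in 4 groups of 5. WT-control tracheas came from uninjured C57/Bl6 mice and KO-control tracheas from uninjured Myd88 knockout (Myd88KO) mice, which lack the adaptor through which most Toll-like receptors and the interleukin-1 receptor signal. WT-injury and KO-injury mice had received 2% polidocanol, which is a detergent that strips the surface epithelium of the trachea, 3 days earlier. The knockout affects every cell of the animal. The study's methods state that the line had been back-crossed to the C57/Bl6JOlaHsd strain and was bred apart from the wild-type colony, so genotype and colony cannot be told apart, and that male and female mice were used. The labels do not give the sex of a mouse. Each trachea was hybridized to 1 one-colour Agilent array, and levels are given as the log2 of a probe's signal minus that of the array's 75th percentile, so that 0 is the signal of that percentile and 1 unit is a doubling. Levels of different probes were not compared with each other.

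The cornified envelope is the insoluble protein shell that replaces the plasma membrane of the outermost cells of the epidermis, the oesophagus and other stratified squamous epithelia. Involucrin (Ivl) forms an early scaffold under the membrane, small proline-rich proteins (the Sprr genes) act as flexible cross-bridges, and transglutaminases join the proteins by covalent bonds. A healthy trachea is instead lined by a pseudostratified epithelium of basal, secretory and ciliated cells. Sprr genes and transglutaminase 1 are nevertheless well known in airway epithelium, where they rise with squamous metaplasia and with retinoid deficiency.

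Most of these genes lie together on chromosome 3, in the epidermal differentiation complex. The files place the probe of Sprr1a at chr3:92590070-92590129, that of Sprr1b at chr3:92543124-92543183, that of Sprr3 at chr3:92563275-92563334 and that of Ivl at chr3:92677482-92677541, all on the minus strand. The pair of Sprr2a probes lies on the plus strand at chr3:92255256-92255315 (probe 1) and chr3:92252807-92252866 (probe 2). Tgm1 (chr14:50567548-50567607), Cnfn (chr7:22157511-22157570) and the 3 Tgm2 probes on chromosome 2 lie elsewhere, with Tgm2 probe 1 at chr2:157857429-157857488. The files do not name the genome build of these positions, and whether a probe lies in coding sequence or in an untranslated region was not analysed here. The 250 bases before the annotated start of 4 genes are given from RefSeq (GRCm38.p6), because Sprr1a, Sprr1b and Ivl are those of the 8 genes whose windows held both motifs that were searched, and Sprr2e followed a Sprr2a probe across all arrays. Capitals mark the AP-1 motif TGANTCA and the TATA motif TATAAA, searched on both strands. The motifs did not overlap in any window.
Sprr1a (chr3:92485882-92486131, minus strand): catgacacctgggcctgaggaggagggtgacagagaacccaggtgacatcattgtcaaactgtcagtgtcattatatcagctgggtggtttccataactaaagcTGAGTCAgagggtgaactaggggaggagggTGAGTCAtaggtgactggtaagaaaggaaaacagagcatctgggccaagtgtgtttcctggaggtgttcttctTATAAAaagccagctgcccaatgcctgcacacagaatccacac
Sprr1b (chr3:92438780-92439029, minus strand): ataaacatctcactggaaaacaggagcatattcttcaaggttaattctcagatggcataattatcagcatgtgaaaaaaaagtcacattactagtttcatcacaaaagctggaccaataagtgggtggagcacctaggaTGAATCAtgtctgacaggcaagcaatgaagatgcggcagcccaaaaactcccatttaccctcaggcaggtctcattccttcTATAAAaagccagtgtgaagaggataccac
Ivl (chr3:92573736-92573985, minus strand): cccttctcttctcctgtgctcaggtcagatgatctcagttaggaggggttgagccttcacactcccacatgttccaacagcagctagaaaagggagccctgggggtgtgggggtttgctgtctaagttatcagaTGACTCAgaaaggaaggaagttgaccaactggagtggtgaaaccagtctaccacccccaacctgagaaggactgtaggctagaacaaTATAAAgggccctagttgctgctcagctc
Sprr2e (chr3:92351893-92352142, plus strand): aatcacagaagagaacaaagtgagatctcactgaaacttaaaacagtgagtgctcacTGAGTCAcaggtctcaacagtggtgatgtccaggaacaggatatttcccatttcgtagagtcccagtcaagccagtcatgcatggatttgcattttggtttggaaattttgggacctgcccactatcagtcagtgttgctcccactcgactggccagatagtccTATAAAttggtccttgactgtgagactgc
In Sprr1a the AP-1 letters began 146 and 116 bases before the start, in Sprr1b 111 bases and in Ivl 116 bases before it, and in Sprr2e 193 bases before it. Of the 10 windows found for the 8 genes, which included 3 for copies of Sprr2a and 2 for Tgm1, 3 held the AP-1 motif and 4 the TATA motif, and there was none for Tgm2. Windows of 7 other Sprr2 genes were also searched, those of Sprr2b, Sprr2d, Sprr2e, Sprr2f, Sprr2h, Sprr2i and Sprr2k. All 7 held both motifs, with the TATA letters 29 bases before the start in each. Sprr2g and Sprr2j were not among them. Over all 32851 windows of this length, 6.75% held the AP-1 motif, 12.4% the TATA motif and 1.21% both. A match describes the letters of the window and is not evidence of binding.

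Of the 11 probes, 9 (of 6 genes) exceeded the scanner software's background limit on 10 arrays or more and were tested, among 26064 probes in all. The probes of Sprr1b and Ivl were not well above background on most arrays and were not tested. The share of spots well above background was 57.5% to 67.8% over the arrays. The arrays of equal replicate number shared a slide, so that all groups were present once on each of 5 slides. Differences were tested with limma on all 20 arrays, and a probe was called at a Benjamini-Hochberg adjusted p under 0.01. The Myd88 probe read 1.94 to 2.28 in WT-control and 1.60 to 2.04 in KO-control arrays, which overlapped, and the difference of -0.21 (SE 0.14, adjusted p = 1.00 in limma) was not called. In injured tracheas it read 1.54 to 2.09 in KO-injury and 2.36 to 2.80 in WT-injury arrays, which did not overlap, and the difference of -0.77 (SE 0.14, adjusted p = 0.00824) was called. Whether the probe lies within the deletion is not given in the sources used here, so it does not check the labels. The 5 secretory markers of airway epithelium were well above background on all 20 arrays, but their summed level, with the array's 75th percentile set to 1, was 716 to 892 in WT-injury against 1539 to 2767 in WT-control arrays. Of them Scgb1a1 (-7.91, adjusted p = 1.05e-05), Scgb3a2 (-5.77, adjusted p = 0.000394) and Bpifa1 (-2.24, adjusted p = 0.000372) fell with injury in wild-type, and Scgb3a1 (-0.11) and Cyp2f2 (-0.61) were not called. In whole tracheas, fewer cells of a type and less RNA per cell cannot be told apart.

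A pair of arrays stood apart from their groups in ways that touched these genes, and both were singled out after their values were seen. WT-control replicate 3 carried the highest level of its group for Sprr1a, Sprr1b, Sprr2a probe 2, Sprr3, Ivl, Tgm1 and Cnfn. Against the mean of the other 4 WT-control arrays it was 8.40 higher on the log2 scale for Sprr3 (337-fold), 4.90 for Cnfn (29.9-fold), 4.26 for Sprr1a (19.2-fold), 3.81 for Tgm1 (14.1-fold) and 3.13 for Sprr2a probe 2 (8.74-fold). The untested Sprr1b and Ivl were 7.03 and 2.03 higher there. Sprr2a probe 1 (-0.14) and the 3 Tgm2 probes (-0.19 to 0.14) were not raised on this array. In all, 167 of the 26064 tested probes (0.641%) exceeded the other WT-control arrays by more than 3 log2 units on this array, among them 5 of the 9 tested probes of the cornified envelope genes. On the other WT-control arrays between 4 and 27 probes exceeded the rest of their group in this way. KO-injury replicates 1 and 5 had 154 and 103 such probes, with 0 probes of the cornified envelope genes among them.

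The genes raised on WT-control replicate 3 included other structural genes of keratinised epithelium, and those named here were chosen after their values were seen. Of 17 tested envelope precursors other than the 8 genes, 12 were more than 3 log2 units higher there, and the median of the 17 was 4.28. Loricrin (Lor), the main protein of the mature epidermal envelope, stood at 8.65 on that array and between -1.51 and 0.21 on the other WT-control arrays. The late envelope gene Lce3f was 11.63 higher, and Krtdap, a keratinocyte differentiation-associated protein, 8.74 higher. The same held for 7 of 10 tested lipid and protease genes of cornification, with Asprv1, a protease that processes filaggrin, 7.46 higher. Of 12 tested keratins 4 exceeded the same limit, with the oesophageal and oral keratins Krt4 and Krt13 5.18 and 5.00 higher and Krt78 8.18 higher. Of 10 desmosome genes 4 exceeded it, led by corneodesmosin (Cdsn) at 7.39, whereas 0 of 17 retinoid-handling genes and 2 of 19 transcription factors did. Tgm3, another transglutaminase of the envelope, stood at 3.53 there and between -4.25 and -3.05 on the other WT-control arrays.

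**Figure D1:**
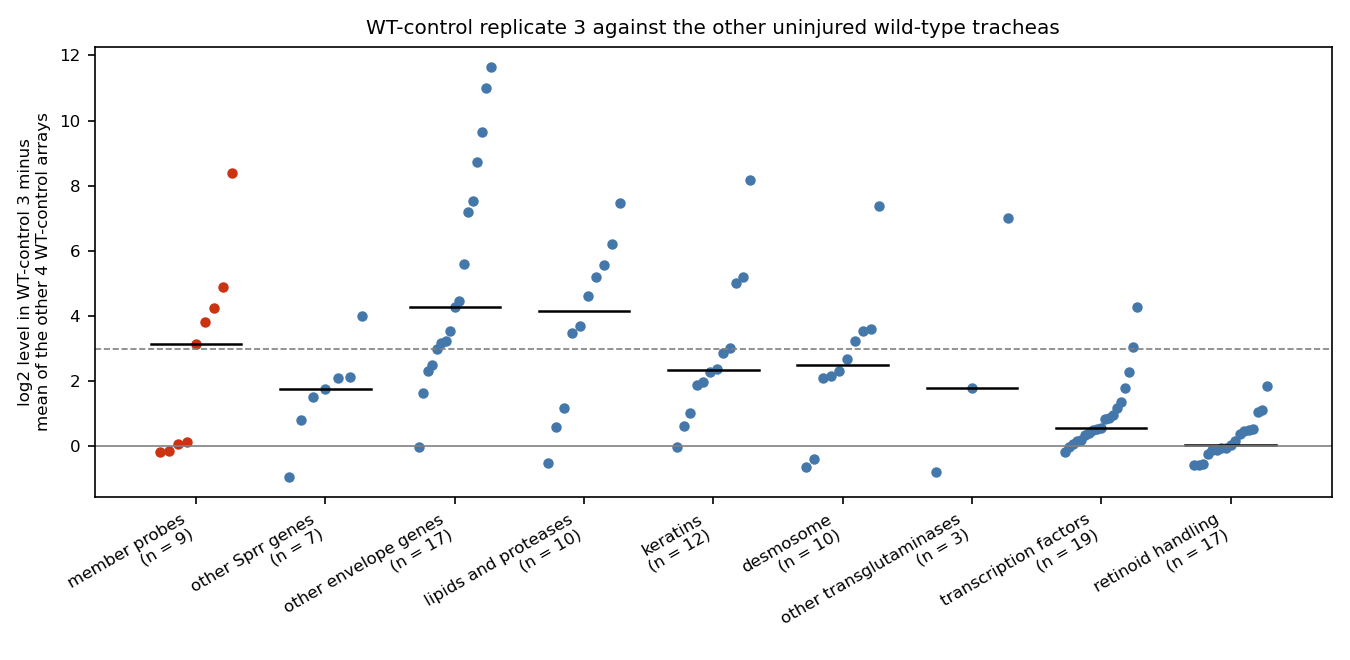
Log2 level on WT-control replicate 3 minus the mean of the other 4 WT-control arrays, 1 point per tested probe of the cornified envelope genes (red) and 1 per tested gene of 8 related lists (blue). Black lines are medians, the dashed line marks 3 log2 units, and the medians run from 0.04 for retinoid handling to 4.28 for other envelope genes.

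A sum was also taken of markers of keratinised squamous epithelium, as in oesophagus or skin. Of these markers Lor, Scel, Tgm3, Krt1, Krt4, Krt10, Krt13 and Krt78 were already counted or named above, so the sum is not separate support. The summed marker level over 11 genes, with the array's 75th percentile set to 1, was 777 on WT-control replicate 3. On the other WT-control arrays it was 14.3 to 22.2. It was 14.2 to 23.2 in KO-control, 18.1 to 53.9 in WT-injury and 20.5 to 66.2 in KO-injury arrays. On WT-control replicate 3, 3 of the markers lay within the range of the other WT-control arrays. These were Krt1 (-3.27), Pax9 (2.18, against 1.38 to 2.38) and Rhcg (-4.26, against -6.02 to -3.72). Of the 11 genes 10 passed the same background limit on 10 arrays or more. The part of such epithelium in the levels of the cornified envelope genes was not tested. Comparisons with the WT-control group that this array moved are given with and without it. For the probes that were high on it, leaving it out raises the difference from WT-control by construction.

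KO-injury replicate 5 was the other array. Its proliferation sum over 5 genes was 3.04, within the 2.05 to 5.24 of the KO-control arrays, while the other KO-injury arrays read 11.9 to 31.2 and the WT-injury arrays 21.2 to 39.1. Its neutrophil sum over 6 genes was 0.411, against 0.986 to 43.1 on the other KO-injury arrays and 0.372 to 2.38 in KO-control. The neutrophil sums of KO-injury replicates 1 (2.315) and 3 (0.986) also lay within the KO-control range, so this sum did not set replicate 5 apart. Comparisons with the KO-injury group that this array moved are given with and without it.

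**Figure D2:**
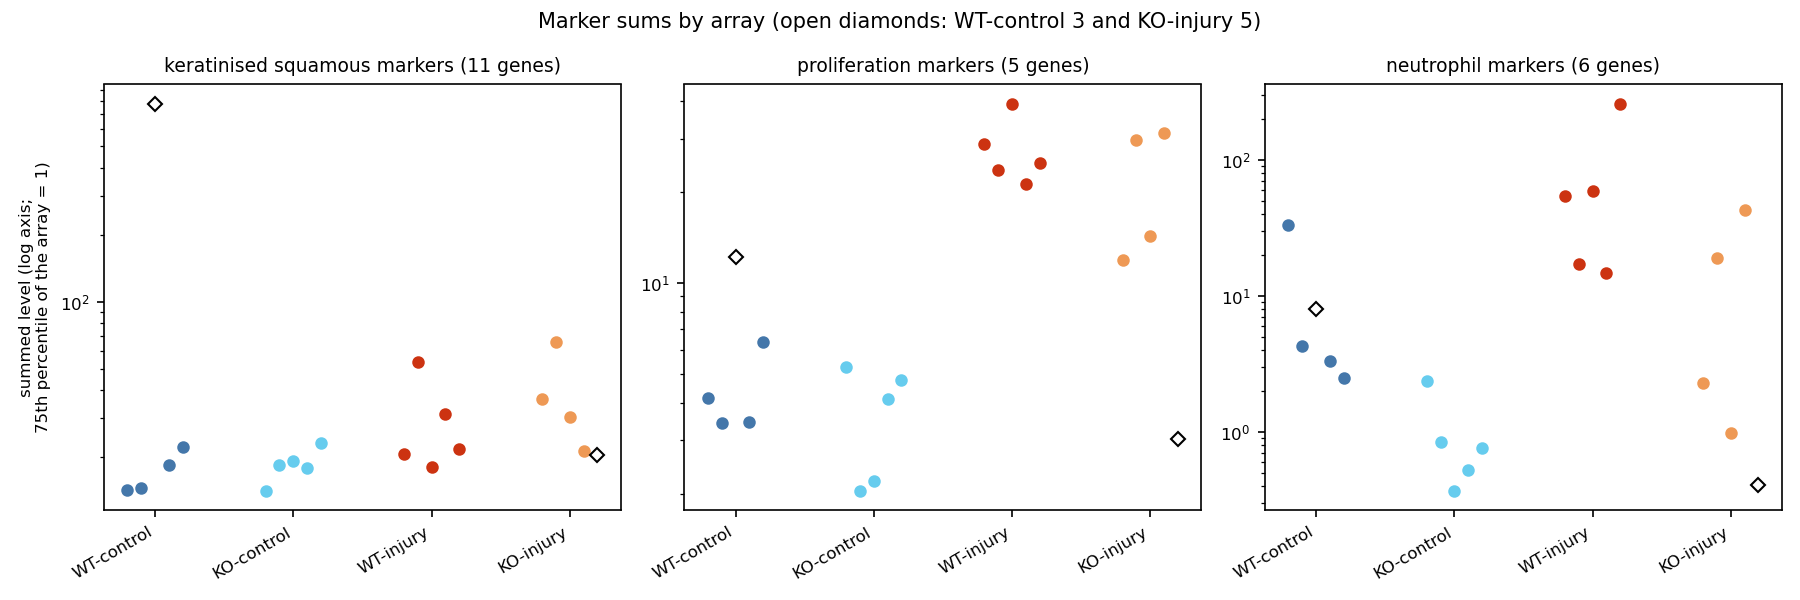
Summed level of 3 marker lists on each of the 20 arrays by group, on log axes, with the 75th percentile of the array set to 1. WT-control replicate 3 reaches 777 for keratinised squamous markers, and KO-injury replicate 5 reads 3.04 for proliferation, within the uninjured range.

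Counted over the tested probes, 1 of 9 was called for injury in wild-type tracheas with all arrays, beside 5.26% of all 26064 tested probes, and 2 of 9 without WT-control replicate 3, beside 4.67%. For injury in Myd88KO tracheas 0 of 9 were called, beside 0.376% of all tested probes, and 1 of 9 without KO-injury replicate 5, beside 4.12%. At an unadjusted p under 0.05 the counts were 4 and 6 of 9 in wild-type and 2 and 4 of 9 in Myd88KO tracheas, beside 26.4% and 27.5% of all tested probes in wild-type and 19.5% and 27.6% in Myd88KO tracheas. Both counts of 4 were made up of Sprr2a probe 2 and the 3 Tgm2 probes, so they rest on 2 genes. Sprr1a and Tgm1 were added in the count of 6. Probes of 1 gene are not separate members. The median difference of all tested probes was 0.00 in wild-type and -0.07 in Myd88KO tracheas.

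**Figure D3:**
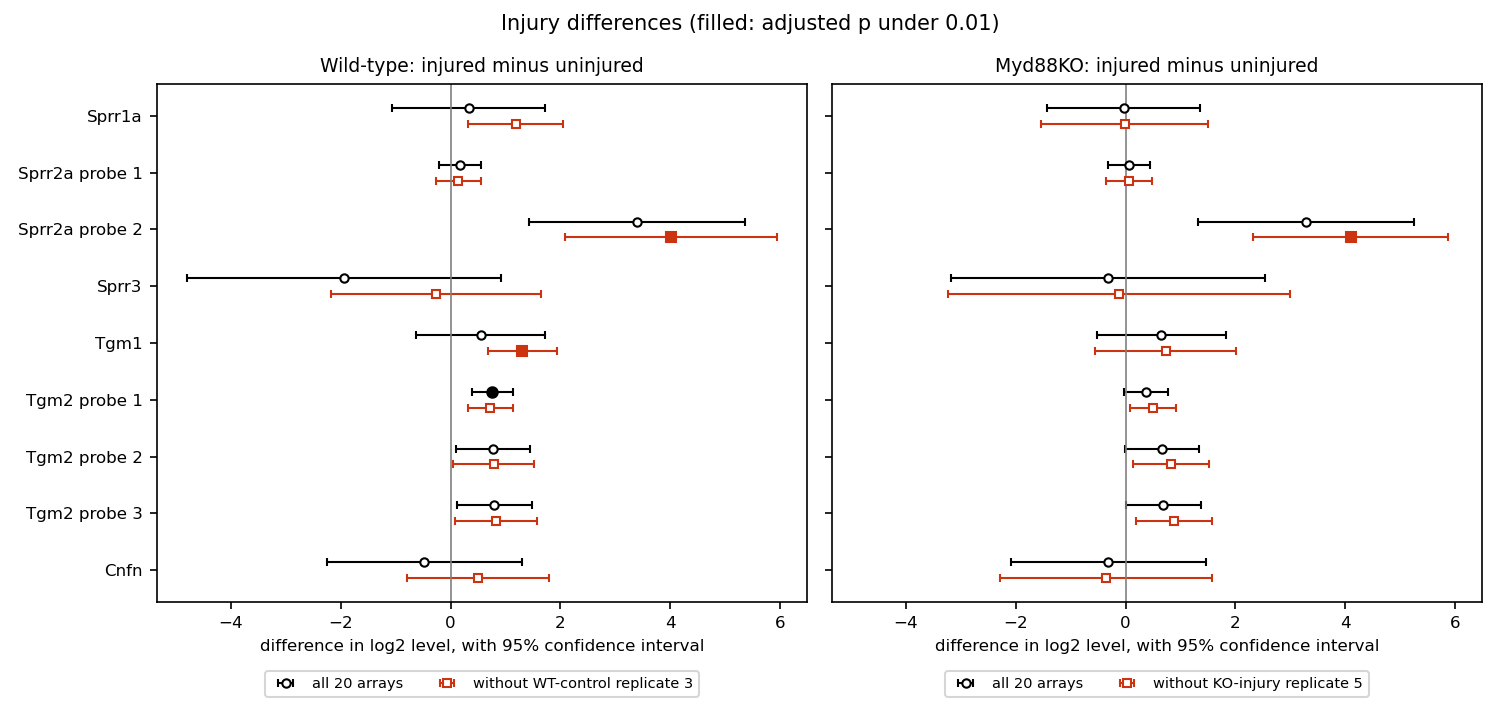
Injured minus uninjured difference in log2 level for the 9 tested probes, with 95% confidence intervals from limma, in wild-type (left) and Myd88KO (right) tracheas, for all arrays (black) and with 1 array left out (red). Filled markers have an adjusted p under 0.01: Tgm2 probe 1 with all arrays, Sprr2a probe 2 and Tgm1 without WT-control replicate 3, and Sprr2a probe 2 without KO-injury replicate 5.

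Among the small proline-rich cross-bridging proteins, Sprr1a was measured on every array. It read 2.80, 1.19, 6.47, 1.89 and 2.96 on WT-control arrays 1 to 5, and 3.20, 2.82, 3.40, 2.98 and 3.78 in KO-control. It read 3.44, 4.55, 2.96, 3.24 and 2.79 in WT-injury, and 3.19, 4.22, 2.24, 3.26 and 3.13 in KO-injury. The groups overlapped, and the highest of the 20 values was that of WT-control replicate 3. With all arrays the wild-type injury difference was 0.34 (SE 0.67, adjusted p = 0.794 in limma). Without WT-control replicate 3 it was 1.19 (SE 0.41, adjusted p = 0.0653), a 2.28-fold higher level that was still not called. The Myd88KO injury difference was -0.03 (95% confidence interval -1.42 to 1.36) with all arrays and -0.01 without KO-injury replicate 5.

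The pair of Sprr2a probes gave different pictures. Probe 2 read 0.32, -0.55, 3.14, -0.32 and 0.60 on WT-control arrays 1 to 5 and 3.18, 4.53, 5.15, 4.08 and 3.20 in WT-injury. It read 0.50, -0.37, -0.46, 0.58 and 1.09 in KO-control and 1.36, 5.52, 3.97, 6.60 and 0.31 in KO-injury. Every WT-injury array lay above every WT-control array, the closest being WT-control replicate 3, and the difference was positive on 5 of 5 slides. The Myd88KO groups overlapped through KO-injury replicate 5. In wild-type the difference was 3.39 (SE 0.94), a 10.5-fold higher level, with an adjusted p of 0.0221 in limma that missed the threshold. Without WT-control replicate 3 it was 4.02 (SE 0.92), 16.2-fold, and was called (adjusted p = 0.00864), and with the slides as a replicate block as well the adjusted p was 0.0152. It was also called when KO-injury replicate 5 was left out of the shared fit (adjusted p = 0.00750). In Myd88KO tracheas it was 3.29 (SE 0.94, 9.75-fold, adjusted p = 0.0597) with all arrays and 4.10 (SE 0.85, 17.1-fold, adjusted p = 0.00484) without KO-injury replicate 5. On KO-injury arrays 1 to 5 the proliferation sum was 11.9, 29.7, 14.3, 31.2 and 3.04, in the same order as the level of probe 2. The macrophage sum there was 8.33, 28.6, 7.95, 26.5 and 4.19, not in the same order. On WT-injury arrays 1 to 5 the proliferation sum was 28.7, 23.5, 39.1, 21.2 and 24.9. The macrophage sum was 37.4, 26.85, 14.3, 22.2 and 34.8. On the WT-injury arrays neither sum was in the same order as the level of probe 2. The part of either sum in the Sprr2a difference was not tested. The injury responses of the genotypes differed by -0.11 (95% confidence interval -2.88 to 2.67) with all arrays. The value was -0.73 without WT-control replicate 3 and 0.70 without KO-injury replicate 5. Over 32 other settings it ran from -0.87 to 0.75 and had the opposite sign in 10, so the sign of this uncalled difference was not determined.

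Probe 1 of Sprr2a was bright and nearly level. It read between 6.22 and 6.85 in WT-control, 5.84 and 6.82 in KO-control, 6.35 and 6.79 in WT-injury, and 5.92 and 6.66 in KO-injury. The wild-type injury difference was 0.17 (95% confidence interval -0.21 to 0.55, adjusted p = 0.595 in limma) with all arrays and 0.14 without WT-control replicate 3. The correlation of the 2 Sprr2a probes over the 20 arrays was 0.15. The annotation names 3 Sprr2a copies. Compared position by position, Sprr2a1 and Sprr2a2 were identical over all 300 bases of the window around their starts. Sprr2a1 and Sprr2a3 matched at 80 of 300 positions, but the windows were not aligned, so this does not measure how alike these copies are. The probe sequences were not compared with any copy, so what either probe measures among the Sprr2 genes is uncertain. By correlation over the 20 arrays, the genes most like probe 1 were the ribosomal protein genes Rps23 (r = 0.91) and Rpl34 (r = 0.91) and Cdc16 (r = 0.91). Those most like probe 2 were Sprr2e (r = 0.98), Rad54l (r = 0.98) and Ankle1 (r = 0.97), so a high correlation with this probe was not particular to Sprr2 genes.

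Sprr3, abundant in oesophageal epithelium, was dim apart from 1 array. It read -2.69, -3.61, 5.46, -2.54 and -2.93 on WT-control arrays 1 to 5 and -2.02, -2.01, -1.66, -1.55 and -1.56 in KO-control. It read -2.48, -0.48, -6.73, -3.27 and -3.06 in WT-injury and -0.68, 0.06, -2.70, -4.19 and -2.86 in KO-injury, and on WT-injury replicate 3 it was not well above background. The injured groups overlapped with each other and with the uninjured ones. The wild-type injury difference was -1.94 (SE 1.37, adjusted p = 0.392 in limma) with all arrays and -0.26 (SE 0.91, adjusted p = 0.879) without WT-control replicate 3. Sprr1b, a close relative of Sprr1a, was well above background on 3 of 20 arrays. It read 0.51 on WT-control replicate 3 and -7.61 to -4.37 on every other array.

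Involucrin was well above background on only 2 of 20 arrays, WT-control replicate 3 at -3.85 and KO-control replicate 5 at -3.91. On the others it read -7.38 to -5.03. At this signal a difference between groups was not detectable. Cornifelin (Cnfn), a small envelope protein, read 2.09, 0.50, 6.53, 1.25 and 2.68 on WT-control arrays 1 to 5 and 2.03, 1.10, 1.57, 1.44 and 3.20 in KO-control. It read 2.51, 3.37, 0.17, 2.22 and 2.38 in WT-injury and 2.42, 2.59, 0.78, 0.25 and 1.70 in KO-injury. All groups overlapped. Its wild-type injury difference turned sign, from -0.48 (SE 0.85, adjusted p = 0.766 in limma) with all arrays to 0.50 (SE 0.62, adjusted p = 0.633) without WT-control replicate 3, and it was called in neither case.

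**Figure D4:**
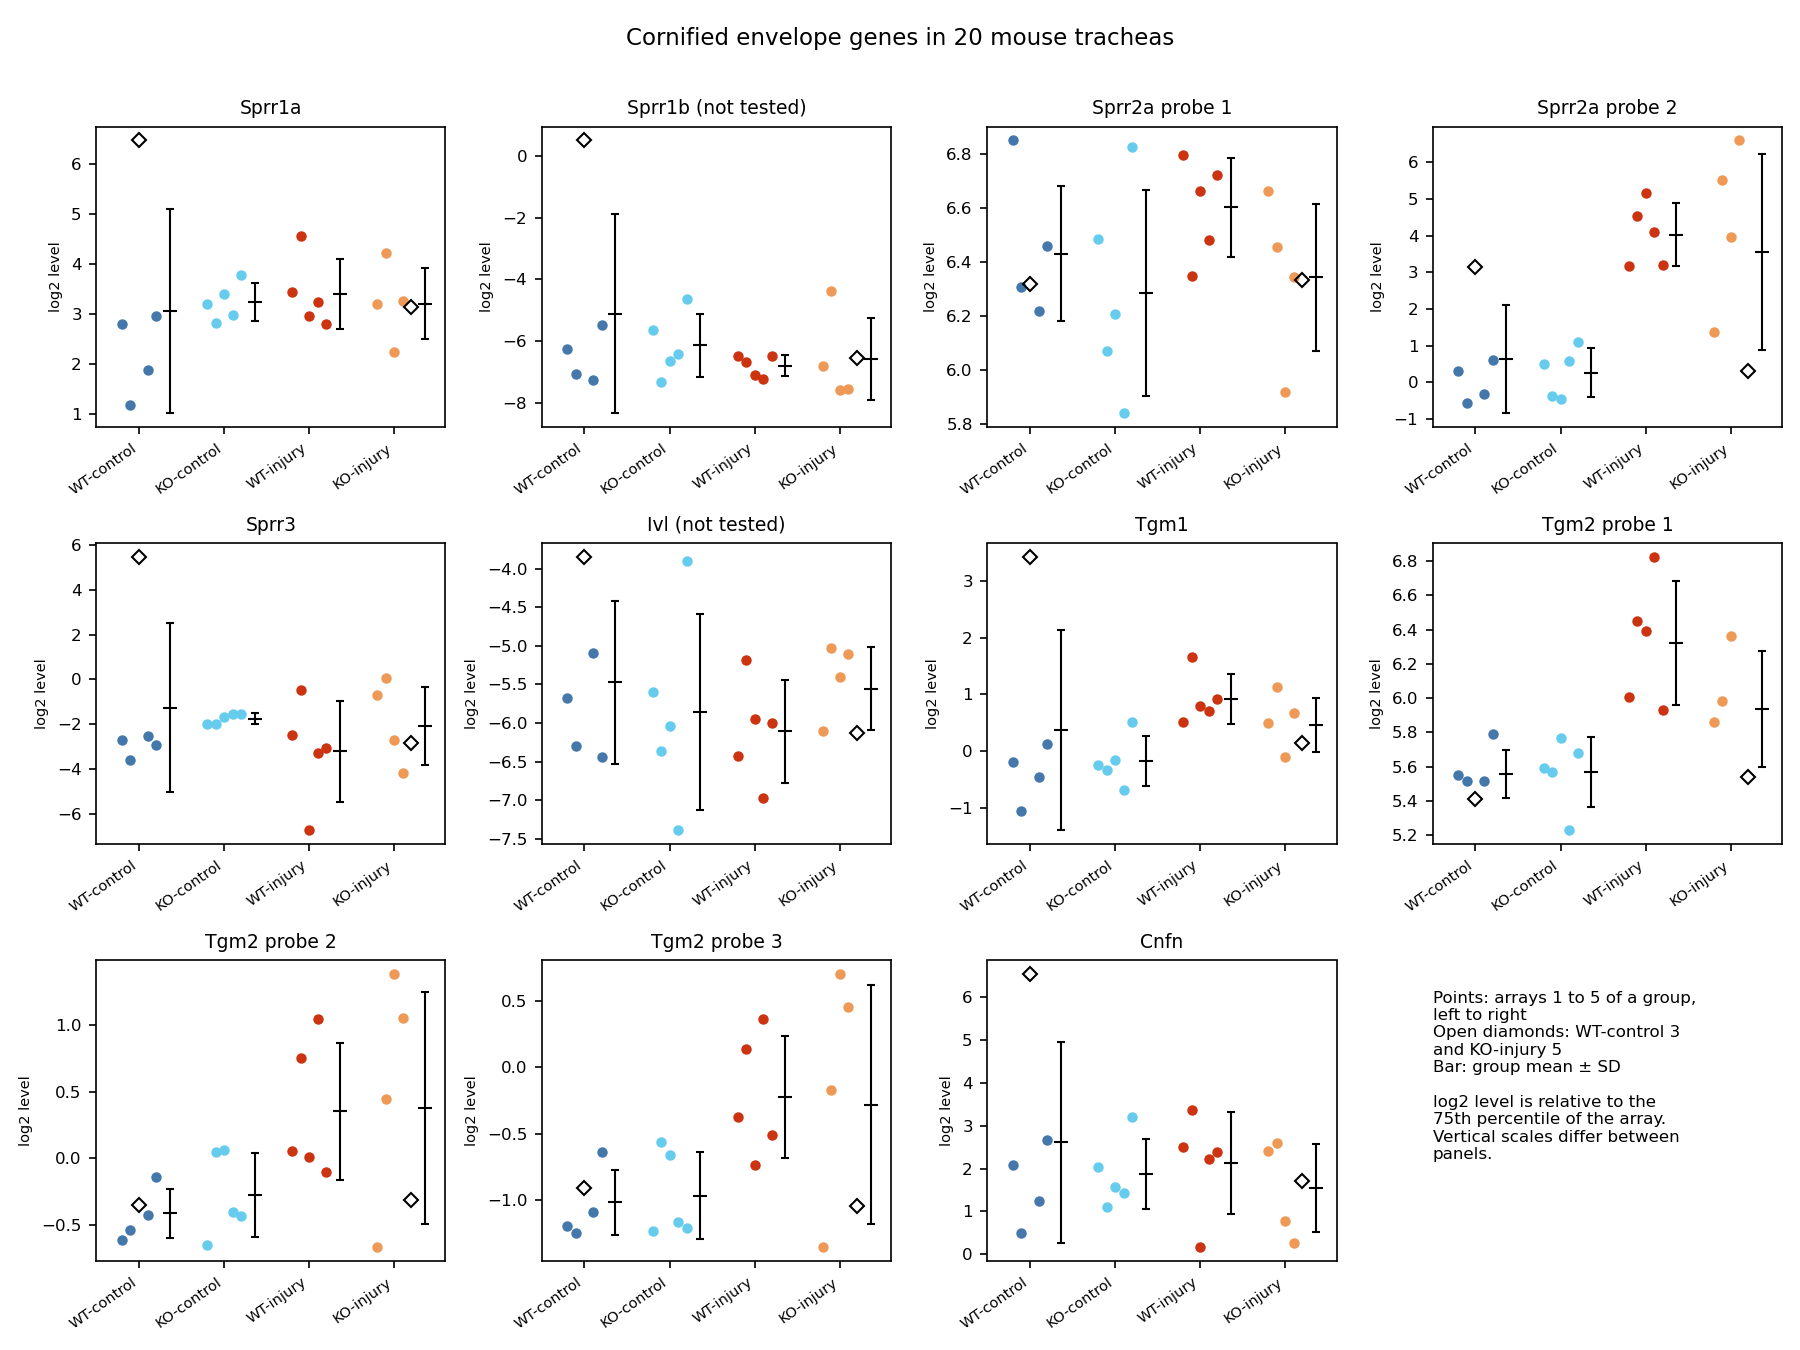
Log2 level of the 11 probes on each array, relative to the array's 75th percentile, with group mean ± SD beside the points; vertical scales differ between panels. WT-control replicate 3 (open diamond) is the highest of its group for 7 probes, and Sprr2a probe 2 runs from 3.18 to 5.15 in WT-injury against -0.55 to 3.14 in WT-control.

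Tgm1, the membrane-anchored transglutaminase that cross-links the envelope, read -0.18, -1.06, 3.42, -0.46 and 0.13 on WT-control arrays 1 to 5 and 0.52, 1.65, 0.79, 0.70 and 0.91 in WT-injury. It read -0.25, -0.34, -0.15, -0.68 and 0.52 in KO-control and 0.49, 1.13, -0.10, 0.68 and 0.15 in KO-injury. Apart from WT-control replicate 3, every WT-injury array lay above every WT-control array. The wild-type injury difference was 0.55 (SE 0.56, adjusted p = 0.578 in limma) with all arrays. Without WT-control replicate 3 it was 1.31 (SE 0.30), 2.48-fold, and was called (adjusted p = 0.00787), and with the slides as a replicate block as well the adjusted p was 0.0111. The Myd88KO difference was 0.65 (95% confidence interval -0.53 to 1.82, adjusted p = 0.566) with all arrays and 0.73 (adjusted p = 0.473) without KO-injury replicate 5.

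Tgm2, or tissue transglutaminase, is expressed by many cell types outside squamous epithelium, among them endothelium and macrophages. Probe 1 read 5.55, 5.52, 5.41, 5.52 and 5.79 on WT-control arrays 1 to 5 and 6.005, 6.45, 6.39, 6.82 and 5.93 in WT-injury. It read 5.59, 5.57, 5.77, 5.23 and 5.68 in KO-control and 5.86, 5.98, 6.36 and 5.54 on KO-injury arrays 1, 2, 3 and 5. The spot on KO-injury replicate 4 was marked as an outlier by the scanner software and left out, so the fit used 4 values in that group. All WT-injury arrays lay above all WT-control arrays. The difference was 0.76 (SE 0.18), 1.70-fold, and Tgm2 probe 1 was the only probe of the cornified envelope genes called with all arrays (adjusted p = 0.00939 in limma). With the slides as a replicate block the adjusted p was 0.0139, and without WT-control replicate 3 the difference was 0.73 with an adjusted p of 0.0208, so the call was lost in both. With 1 array left out at a time, the call was kept without WT-injury replicate 5 and without KO-injury replicate 3, 4 or 5, and was lost without any other array, with adjusted p from 0.00378 to 0.0346 over all settings tried. The difference was positive on 5 of 5 slides, from 0.14 to 1.30.

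The other Tgm2 probes gave differences of like size without a call. Their positions overlap, at chr2:157859836-157861036 (probe 2) and chr2:157861017-157861076 (probe 3). Over the 20 arrays their correlation was 0.99, so they are not separate measurements. Probe 2 was 0.77 higher in injured wild-type tracheas (SE 0.32, adjusted p = 0.129 in limma) and probe 3 was 0.80 higher (SE 0.33, adjusted p = 0.121). Without WT-control replicate 3 the values were 0.78 and 0.82. In Myd88KO tracheas the 3 probes were 0.37, 0.66 and 0.69 higher, with adjusted p from 0.255 to 0.302. Without KO-injury replicate 5 the values were 0.50, 0.83 and 0.88, with adjusted p from 0.0898 to 0.107. The macrophage sum over 6 genes, which include no Tgm2, was 14.3 to 37.4 in WT-injury and 5.30 to 6.55 in WT-control arrays. It was 4.19 to 28.6 in KO-injury and 4.56 to 8.26 in KO-control arrays, and its part in the Tgm2 difference was not tested.

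The question of whether Myd88 deficiency changed these genes was asked in uninjured tracheas, in injured tracheas and as the difference between the injury responses. With all arrays none of the 9 probes was called in limma in any of the 3 comparisons, and none had an unadjusted p under 0.05. The background of called probes was 0.384% of tested probes in uninjured and 0.38% in injured tracheas. At an unadjusted p under 0.05 the background was 5.59% and 12.5%, and 0 of 9 is not far from these shares. For the difference between the injury responses 0% were called, with 2703 of 26064 probes (10.4%) at an unadjusted p under 0.05. In uninjured tracheas Sprr1a had the lowest p once WT-control replicate 3 was left out. Its difference was 0.18 with all arrays and 1.03 (2.04-fold, unadjusted p = 0.0218, adjusted p = 0.855) without that array. In that fit 1 of 9 probes had an unadjusted p under 0.05, beside 4.28% of all tested probes. The differences for Sprr3, Tgm1 and Cnfn were -0.50, -0.55 and -0.74 with all arrays, and 1.18, 0.21 and 0.24 without WT-control replicate 3. Without that array Sprr3 was higher on all 5 KO-control arrays than on the other 4 WT-control arrays (adjusted p = 1.00). That array was left out after its high level of Sprr3 was seen, so the separation is not support for a genotype difference. The share of all tested probes that separate in this way was not counted. In injured tracheas the intervals of the Myd88KO minus wild-type difference were -1.58 to 1.20 for Sprr1a, -2.44 to 1.48 for Sprr2a probe 2 and -1.62 to 0.73 for Tgm1. Without KO-injury replicate 5 they were -1.69 to 1.35, -1.45 to 2.11 and -1.64 to 0.91. For the difference between the injury responses, Sprr1a had the lowest p once WT-control replicate 3 was left out (-1.22, SE 0.56, unadjusted p = 0.0445, adjusted p = 0.523). There too 1 of 9 probes had an unadjusted p under 0.05, beside 9.46% of all tested probes. A count of 1 of 9 is not far from either share.

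Other members of the Sprr cluster were divided. Sprr2g fell with injury while Sprr2a probe 2 was higher. It read 3.01, 1.29, 0.76, 0.83 and 1.62 on WT-control arrays 1 to 5 and -1.96, -1.91, -1.70, -1.95 and -2.17 in WT-injury. It read 0.81, 0.95, 1.97, 0.70 and 1.27 in KO-control and -1.79, -2.25, -2.33, -2.12 and 1.55 in KO-injury, so that KO-injury replicate 5 alone stayed among the uninjured values. The wild-type difference was -3.44 (SE 0.57, adjusted p = 0.00102 in limma) with all arrays and -3.63 without WT-control replicate 3, where it was also called. The Myd88KO difference was -2.53 (SE 0.57, adjusted p = 0.0240) with all arrays and -3.26 (SE 0.35, adjusted p = 1.56e-05) without KO-injury replicate 5. Sprr2g was the only called gene among the 7 tested of 10 other Sprr genes. The 6 others were 0.63 to 2.18 higher in injured wild-type tracheas and none of them was called. Sprr2e was the highest of them (SE 0.76, adjusted p = 0.0672), and on the KO-injury arrays it read 0.09, 3.60, 2.26, 4.95 and -0.37, in the same order as Sprr2a probe 2. How far 1 probe reads several Sprr2 genes was not tested.

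**Figure D5:**
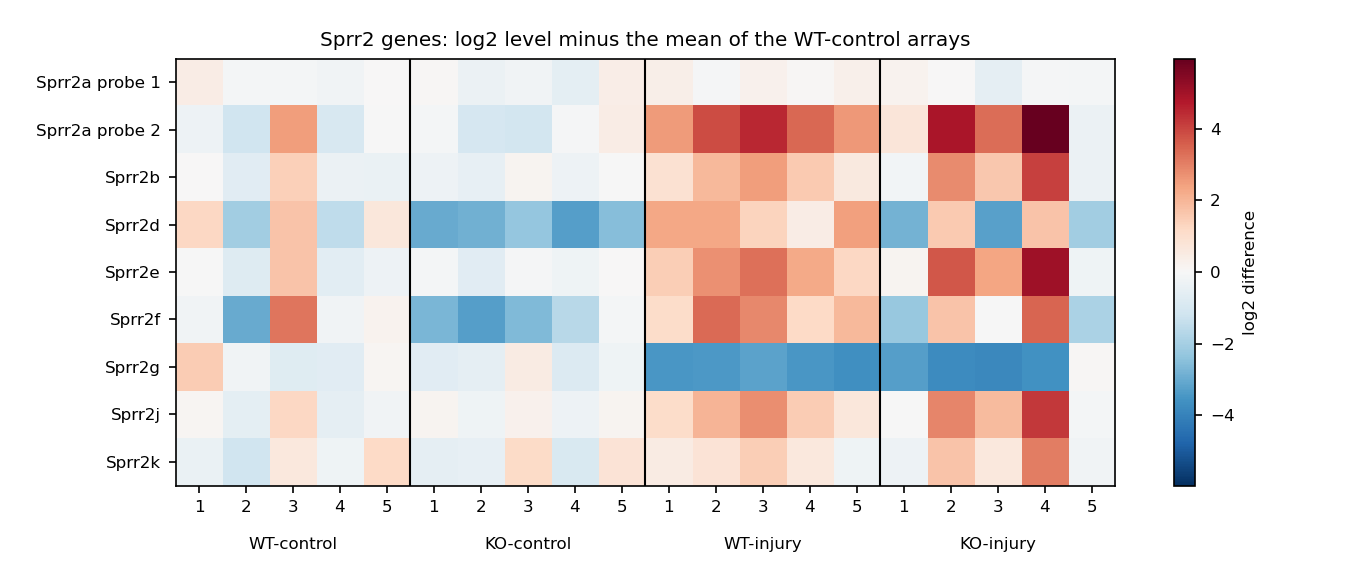
Log2 level of Sprr2a and 7 other Sprr2 genes on the 20 arrays, minus the mean of the 5 WT-control arrays (colour; red higher, blue lower). Sprr2a probe 2 and Sprr2e are high on the WT-injury arrays and on KO-injury arrays 2 to 4, Sprr2g is low on the injured arrays other than KO-injury replicate 5, and Sprr2a probe 1 is level.

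The wider pathway was followed through 7 further lists. Of the 17 tested envelope precursors of 33, trichohyalin (Tchh), a protein of the hair follicle root sheath, fell in injured wild-type tracheas, from -0.99 to -0.49 in WT-control to -2.40 to -1.56 in WT-injury (-1.14, SE 0.20, adjusted p = 0.00165 in limma). None of the other 16 was called, and the median of the list was -1.14 with all arrays and -0.05 without WT-control replicate 3. Envoplakin (Evpl), a scaffold partner of involucrin, was 0.34 higher with all arrays (adjusted p = 0.700) and 0.94 higher without that array (adjusted p = 0.0523). Of 3 tested other transglutaminases, 10 desmosome genes, 12 keratins and 10 lipid and protease genes of cornification, none was called for injury in wild-type. The keratin median was 0.18 with all arrays and 0.78 without WT-control replicate 3, and the basal cell keratin Krt14 was 1.14 (adjusted p = 0.196) and 1.60 (adjusted p = 0.0462) higher. Loricrin was high on KO-injury replicates 1 and 2 as well, at 4.04 and 4.57, against -2.01 to -1.17 on the other KO-injury arrays, and Lce3f read 3.56 and 2.80 on those 2 arrays. Sprr1a was 3.19 and 4.22 and Sprr3 -0.68 and 0.06 there.

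Among 17 tested retinoid-handling genes 1 was called for injury in wild-type tracheas. Aldh1a1, which makes retinoic acid, fell by 2.06 (SE 0.46, adjusted p = 0.00708), from 6.87 to 7.75 in WT-control to 4.20 to 6.76 on 4 WT-injury arrays with a value, and lost its call without WT-control replicate 3 (adjusted p = 0.0133). In Myd88KO tracheas 0 genes of the 8 lists were called with all arrays. Without KO-injury replicate 5 the called genes were Sprr2g, the retinol dehydrogenase gene Dhrs9 at 2.26 higher (adjusted p = 0.00170) and Smpd1, an acid sphingomyelinase of the skin barrier, lower (-0.70, adjusted p = 0.00884). In the 3 comparisons that involve genotype 0 genes of the lists were called.

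Across arrays, the genes most like each envelope gene were given by correlation as a description. Over 20 arrays Sprr1a was most like Lypd3 (r = 0.94), Sprr3 most like Wfdc5 (r = 0.95), Tgm1 most like Tmem40 (r = 0.95) and Cnfn most like Tprg (r = 0.97). Without WT-control replicate 3 these values were 0.88, 0.90, 0.90 and 0.94. Sprr1a, Sprr3 and Cnfn kept the same closest gene, but Tgm1 was then most like Pabpc1 (r = 0.94, against 0.57 over 20 arrays). Tgm2 probe 1 was most like Myo1a (r = 0.91) over 20 arrays and most like Tmem132a (r = 0.92) without that array. Between the envelope genes, the correlation of Sprr1a with Cnfn fell from 0.84 to 0.64 and that of Tgm1 with Sprr3 from 0.62 to 0.11 when that array was left out, while that of Tgm1 with Sprr2a probe 2 went from 0.60 to 0.77. The points share their slides and the injury, so these are not independent samples of 1 condition.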

How the data were processed

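Whole-trachea RNA of 20 mice was hybridized to one-colour Agilent arrays. The authors deposited, for each array, the Feature Extraction intensity of 45018 spots, already background-subtracted and detrended but not scaled between arrays, and a value table that held the same intensity after rounding. Control spots (1639) and 1960 spot values with an outlier mark were left out, and 1 saturated spot was kept. The log2 intensity minus the 75th percentile of its array was averaged over the spots of a probe. A probe was tested if well above background on at least 10 of 20 arrays. Groups came from the sample titles. All 20 arrays were fitted with limma 3.58.1 in R 4.3.3 (lmFit, contrasts, eBayes) with Benjamini-Hochberg adjustment within each contrast, and a probe was called at an adjusted p under 0.01. The fit was tested on simulated data. P-values measure the spread between mice, and the number of arrays limits the precision. Symbols were matched to the GRCm38.p6 gene table for 22951 probes by accession, for 6659 by symbol and for 3109 by an older symbol, while 8455 kept the array's name. The genes and lists were chosen with earlier results of these data known. In each list the genes named were those called, at most 6 of the largest differences, and up to 2 textbook members. Alternatives covered background correction, scaling, the deposited table, filters, outlier spots, slide and scan day as blocks, array weights, the methods' one-way test and leaving out arrays. The injury result of 1 list is not reported here.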

Additional observations from a re-analysis of the deposited data

Results flagged for a closer look

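Among 44 groups of 5 or 4 arrays examined for a value far from the rest, 3 had one, and chance gives about 1 in 20. All 3 were the highest WT-control value and came from replicate 3. Sprr1b read 0.51 there, with a gap to the next array of 0.773 of the group's whole range. Sprr3 read 5.46, with a gap of 0.882 of the range. Tgm1 read 3.42, with a gap of 0.735 of the range. No cause was tested.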

How the results depend on the processing

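Of 1507 differences recomputed under 34 other settings, 1472 kept their side of the threshold and direction or stayed uncalled, 25 lost a call, 10 gained one and 0 called values changed sign, while 101 uncalled values changed sign. For injury in wild-type tracheas the 1 called probe became 0 under normexp background correction, quantile normalization, median scaling, no filter on dim probes, the methods' one-way test, the replicate block (slide) and the replicate block with WT-control replicate 3 left out. The count was 2, Sprr2a probe 2 and Tgm2 probe 1, at an adjusted p under 0.05 and with array weights. With both WT-control replicate 3 and KO-injury replicate 5 left out the count was also 2, but the probes were Sprr2a probe 2 and Tgm1. With only the 2 groups compared the count stayed at 1, but the probe was Sprr2a probe 2. With 1 array left out at a time the count ran from 0 to 2. For injury in Myd88KO tracheas the count of 0 became 1 (Sprr2a probe 2) with array weights and with both arrays left out, and ran from 0 to 1 with 1 array left out at a time. The other 3 comparisons gave 0 throughout. The cause of these changes was not tested.

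Replicate numbers marked slides. The correlation of same-numbered arrays' deviations from their group means ran from -0.22 to 0.48, above 0.1 in 16 of 20 pairs. With the replicate block, Tgm2 probe 1 had a wild-type difference of 0.76 and an adjusted p of 0.0139, and Sprr2a probe 2 had 3.39 and an adjusted p of 0.0236. Over all settings the adjusted p of Sprr2a probe 2 ran from 0.00112 to 0.0630 in wild-type and from 0.000448 to 0.264 in Myd88KO tracheas, and that of Tgm1 from 0.00637 to 0.879 in wild-type. Over all tested probes, 1372 were called for injury in wild-type tracheas, 2599 with array weights, 2106 with scan day as a block and 665 to 1843 with 1 array left out. In Myd88KO tracheas 98 were called, 1904 with array weights, 361 with scan day as a block, 56 under median scaling, 60 with no filter, 0 with only the groups compared, 0 with the methods' one-way test and 6 to 1075 with 1 array left out. The median difference of all probes moved by at most 0.104 from its main value, with no filter on dim probes in wild-type injury. Sprr1b and Ivl were too dim for a comparison.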
